A study of Mus musculus with 6 samples.

Results

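The collagen chain genes are described here in inguinal white adipose tissue (iWAT), the subcutaneous fat pad of the groin, from mice on a high-fat diet (HFD). They were taken as all genes of the deposited table whose identifier maps to a protein-coding gene named Col, a type number, the letter a and a chain number in GENCODE M21. This gave 36 of the 15176 genes in the table, of 44 collagen chain genes in that annotation. The 8 others, Col2a1, Col6a4, Col9a1, Col9a2, Col9a3, Col10a1, Col19a1 and Col25a1, have no row in the table and were not analysed here. All 36 passed the filter on low values, a mean value of at least 10. The control group is 4 libraries of Steap4f/f mice with floxed alleles of Steap4 (replicates 1, 2, 5 and 6), and the other group is 2 libraries from Steap4AKO mice, named as a knockout of Steap4, a gene for a metalloreductase of iron and copper (replicates 2 and 3). Both groups were on HFD. The cells and promoter in which the deletion is driven, the age of the mice and the number of animals behind each library are not given in the sources used here, and p-values measure only the spread between these libraries.

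Collagens are proteins of the extracellular matrix in which chains wind into a trimeric helix. Fibrillar collagens of types I, III and V build the tensile fibres between fat cells. Type IV forms the sheet-like basement membrane around each adipocyte and blood vessel, and type VI forms beaded filaments between that sheet and the fibres. FACIT collagens sit on the surface of fibrils, and the other types include transmembrane chains and the vessel-associated types VIII, XV and XVIII. In fat, fibroblast-like progenitor cells are a main source of fibrillar chains, and collagen around adipocytes limits how far they can enlarge.

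Of the 36 chains, 10 were fibrillar, 6 of the basement membrane type IV, 5 of type VI, 5 FACIT and 10 of other types. The values are read counts normalized by the authors, called normalized counts below. Each log2 difference is Steap4AKO minus Steap4f/f on log2(value + 1), and a gene passes the test where its Benjamini-Hochberg adjusted p over all genes is under 0.05 in limma. By this test no collagen chain passed, in a fit where 71 of 15006 genes (0.473%) passed, 0.04% higher and 0.433% lower. The smallest adjusted p of a chain was 0.0754, for Col16a1. At an unadjusted p under 0.05 there were 12 of 36 chains, against 18.1% of all genes. These were 6 lower (all genes 9.66%) and 6 higher (all genes 8.45%). In 6 chains both Steap4AKO libraries lay below all 4 Steap4f/f libraries, as in 14.4% of all genes, and in 4 chains both lay above, as in 14.1% of all genes. The mean log2 value was higher in Steap4AKO for 20 of 36 chains, against 52.2% of all genes.

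Summed, the chains made up 1.25, 1.40, 1.39 and 1.08% of all deposited values in the controls, against 1.41 and 1.25% in Steap4AKO replicates 2 and 3, within the range of the control libraries or just above it. The median log2 difference of the 36 chains was 0.17, against 0.02 for all genes tested. By type the median was -0.62 for fibrillar chains, 1.48 for type IV, 0.28 for type VI, 0.44 for FACIT and 0.61 for the other chains. The medians of type IV, type VI and FACIT were set mostly by 1 library, and without Steap4AKO replicate 2 the 5 medians were -0.48, 0.27, -0.01, 0.05 and 0.48. Against the controls, Steap4AKO replicate 3 alone was below all of them in 8 chains (23.4% of all genes) and above all in 5 (24.4%), and replicate 2 alone was below all in 8 (28.6%) and above all in 18 (31.5%).

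**Figure D1:**
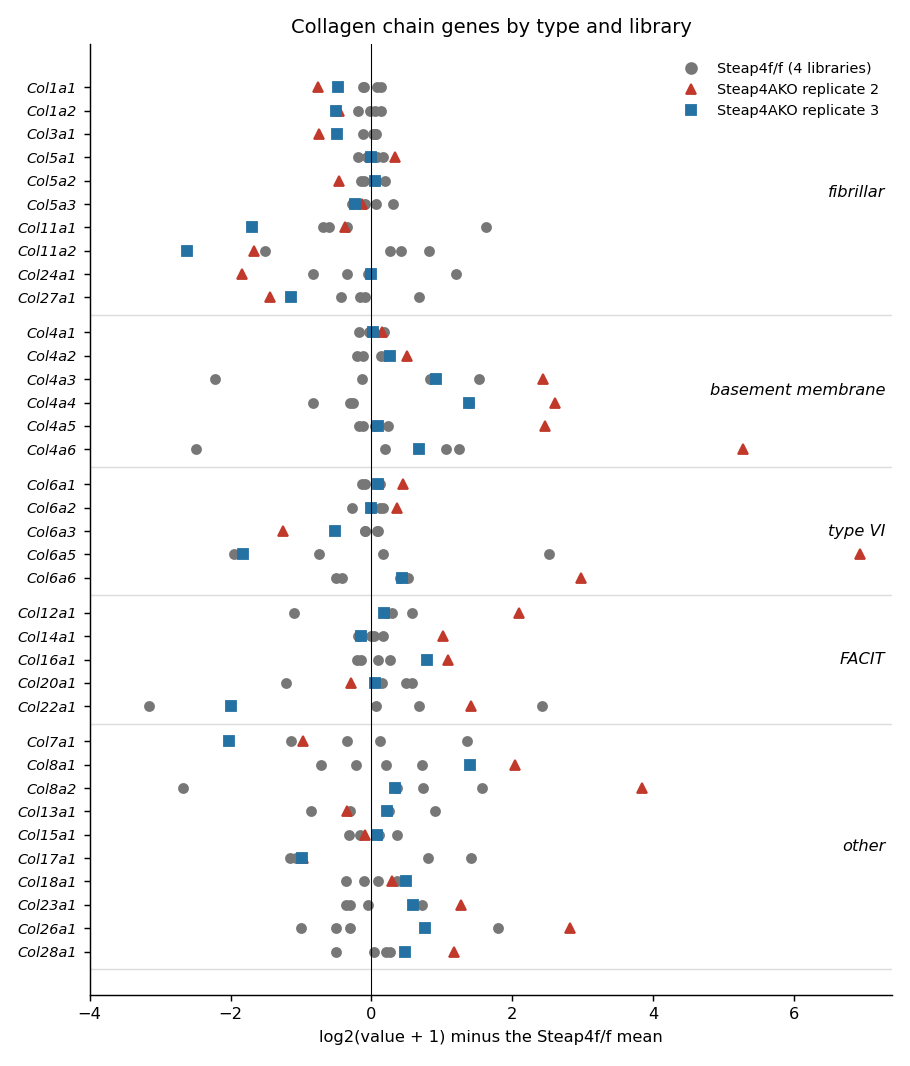
Each row is 1 of the 36 collagen chain genes and each point 1 library, placed at its log2(value + 1) minus the mean of the 4 Steap4f/f libraries; grey circles are Steap4f/f, red triangles Steap4AKO replicate 2 and blue squares Steap4AKO replicate 3. Col1a1, Col1a2, Col3a1, Col6a3, Col11a2 and Col27a1 have both Steap4AKO points left of every grey point, and the triangles of Col6a5 and Col4a6 lie farthest right, at 6.95 and 5.28.

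Some facts of the libraries apply to all values below. The deposited values summed to 18846300 to 20547900 per control library and to 16573600 and 17979600 for Steap4AKO replicates 2 and 3. The depth, known only as an estimate, was 15890700 to 19406300 reads per control library and 11598000 and 18124600 reads for Steap4AKO. Steap4 itself was 10899 ± 4104 (SD, n = 4) and 8163 ± 211 (SD, n = 2) (limma adjusted p = 0.544), so that its level in whole tissue did not check the labels. All 8 adipocyte markers were in the table, with sums of 485721 to 645656 in Steap4f/f and of 308536 and 472398 in Steap4AKO replicates 2 and 3. As a mean percentage of each marker's control mean, Steap4AKO replicate 2, at 88.1, lay below every control. Steap4AKO replicate 3, at 112.3, lay above every control, the highest of which was at 106.6. By log2 difference 7 of the 8 markers were lower in Steap4AKO, with Fabp4 and Cfd lower without overlap. Lep was higher without overlap, 2.99-fold in its mean. Steap4AKO replicate 2 stood apart, where 973 genes (6.48%) exceeded each of the other libraries by more than 2-fold, against 29 (0.193%) in replicate 3. In replicate 2 all 8 epithelial markers summed to 2505, against 40.1 to 77.2 in Steap4f/f and 47.6 in replicate 3, where Epcam, Cldn4 and Esrp1 were at 0. Controls had such zeros too: Epcam in Steap4f/f replicates 1, 2 and 6, Cldn4 in 1, 2 and 5, and Esrp1 in 1 and 2. All 7 mesothelial markers summed to 2507 in replicate 2, against 95.5 to 558.5 in Steap4f/f and 58.1 in replicate 3, where Msln, Upk3b and Wt1 were at 0. Upk3b was also at 0 in Steap4f/f replicate 2, Wt1 in replicates 1 and 2, and Upk1b in 1, 2 and 5. All 16 skeletal muscle markers had log2 differences below 0 (47.8% of all genes). Of these, 14 were lower without overlap (14.4% of all genes), with Myh2 and Myh7 overlapping. The 7 that passed the test (0.433% of all genes were lower and passed) had limma adjusted p-values of 0.0466 to 0.0483. The 16 markers summed to 2275 and 19455 in Steap4AKO replicates 2 and 3, against 153725 to 831093 in Steap4f/f. The part of cells with these markers in the collagen values was not tested. Scaling all libraries to the same total moved the median log2 difference of all genes from 0.02 to 0.21, and the list medians below can be read against that shift. Of the 36 chains, Col13a1, Col15a1 and Col20a1, whose groups overlap, were those whose log2 difference turned from below to above 0 under that scaling.

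Promoters of chains that separated the groups are shown so that their letters can be read beside the values. RefSeq (GRCm38.p6) gave a promoter window for 29 of the 36 chains. Printed are the 250 bases before the RefSeq start of 2 chains of fibrils, Col3a1 and Col27a1, and of Col6a3, which were lower in both Steap4AKO libraries, and of Col8a1, which was higher in both. They were chosen after their values were seen, and because their windows hold no annotated exon. The RefSeq start of Col27a1 lies inside the gene as GENCODE M21 annotates it. Capitals mark GGGCGG, the GC box, or TATAA, on either strand.
Col3a1, chr1:45311288-45311537, plus strand: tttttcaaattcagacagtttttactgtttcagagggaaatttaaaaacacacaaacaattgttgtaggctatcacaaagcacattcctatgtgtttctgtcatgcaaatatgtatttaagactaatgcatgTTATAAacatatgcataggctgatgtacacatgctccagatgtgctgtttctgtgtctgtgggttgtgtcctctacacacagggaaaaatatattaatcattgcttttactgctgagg
Col6a3, chr1:90843972-90844221, minus strand: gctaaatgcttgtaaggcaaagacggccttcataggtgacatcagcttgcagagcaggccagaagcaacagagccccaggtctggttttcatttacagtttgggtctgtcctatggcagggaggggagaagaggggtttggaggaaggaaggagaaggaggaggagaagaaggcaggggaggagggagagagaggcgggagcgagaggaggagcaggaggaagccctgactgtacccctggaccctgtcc
Col27a1, chr4:63215162-63215411, plus strand: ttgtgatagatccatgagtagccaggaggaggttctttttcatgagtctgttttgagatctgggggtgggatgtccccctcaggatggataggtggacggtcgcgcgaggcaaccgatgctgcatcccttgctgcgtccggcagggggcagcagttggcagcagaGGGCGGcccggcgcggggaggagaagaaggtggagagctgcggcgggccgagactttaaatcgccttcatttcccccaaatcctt
Col8a1, chr16:57754738-57754987, minus strand: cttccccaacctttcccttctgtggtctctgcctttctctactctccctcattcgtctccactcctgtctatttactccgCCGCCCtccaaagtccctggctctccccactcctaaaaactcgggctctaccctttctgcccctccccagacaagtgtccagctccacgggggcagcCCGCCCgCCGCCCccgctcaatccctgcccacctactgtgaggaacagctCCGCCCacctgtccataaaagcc
The Col3a1 window is 35.2% G and C, and its TATAA matches, 1 on each strand, overlap at 118 and 117 bases before the start. The Col8a1 window is 60.8% G and C and holds 4 GC boxes. Col27a1 holds 1, at 85 bases before the start, and Col6a3 holds none of the motifs searched. Over the 29 chains with a window, 18 held GGGCGG, 10 held CCAAT and 5 held TATAA, each on either strand, against 32.7, 33.8 and 22.8% of all 32851 promoters. None of the 4 windows printed holds CCAAT. A match is a description of letters, not a measured site.

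The chains of types I and III had lower values in both Steap4AKO libraries than in every control as deposited, and none of them passed the test. Col1a1 encodes the first chain of type I collagen, the main protein of tensile fibres (chromosome 11, 94936224 to 94953042, plus strand of GRCm38). Its normalized counts were 26260, 27179, 23067 and 22818 in Steap4f/f replicates 1, 2, 5 and 6, and 14704 and 17798 in Steap4AKO replicates 2 and 3. The lowest control library lay above both Steap4AKO libraries. The mean was 1.53-fold lower, with a log2 difference of -0.61 (SE 0.18, limma adjusted p = 0.16). Col1a2, the partner chain in the type I trimer (chromosome 6, 4504814 to 4541544), had 21926, 23185, 20887 and 18548 in the controls, against 15350 and 14851 in Steap4AKO. Its mean was 1.40-fold lower (log2 difference -0.48, SE 0.17, limma adjusted p = 0.205), and the groups did not overlap as deposited but did so when libraries were scaled to the same total, where 4 chains were lower without overlap (7.7% of all genes) and 9 higher (25.6%).

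Col3a1, the chain of the type III homotrimer of softer, extensible fibres (chromosome 1, 45311538 to 45349706), was the chain with the highest normalized count in each control library, while Col4a1 was higher in both Steap4AKO libraries. It had 52839, 53309, 51739 and 46903 in the controls, against 30516 and 36320 in Steap4AKO. The control libraries lay close together and the Steap4AKO libraries below them, with a mean 1.53-fold lower (log2 difference -0.62, SE 0.21, limma adjusted p = 0.194). In Steap4AKO replicate 3 the log2 deviations from the control mean were -0.48 for Col1a1, -0.50 for Col1a2 and -0.49 for Col3a1. In replicate 2 they were -0.75, -0.46 and -0.74. Each of the 3 chains lay below the control mean in both libraries.

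Of the 9 markers of fibroblasts and progenitors, 7 lay lower in Steap4AKO by their log2 difference and 2 lay higher, Cd34 (log2 difference 0.22) and Dpp4 (0.16). Their sum was 15812, 16494, 13310 and 12296 in the controls, against 10385 and 10750 in Steap4AKO. As a mean percentage of each marker's control mean, the controls were at 87.8 to 114.8. Steap4AKO replicate 2, at 88.3, lay inside that range and replicate 3, at 78.6, below it. Of the 9 markers 3, Pdgfra, Pi16 and Ly6a, lay below all control libraries in both Steap4AKO libraries, as in 14.4% of all genes. None of the 9 passed the test, 2 had an unadjusted p under 0.05 (18.1% of all genes), and the median log2 difference was -0.21. None was at 0 in any library. Their part in the collagen values was not tested, and in whole tissue fewer cells of a type and less RNA per cell cannot be told apart.

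Type V collagen, which is built into type I fibrils and limits their width, overlapped between the groups. Col5a1 had 6319, 7592, 8091 and 6893 in the controls, against 9086 and 7149 in Steap4AKO (log2 difference 0.16, 95% interval -0.22 to 0.55). Col5a2, which lies 24614 bases from Col3a1 on chromosome 1, tail to tail, had 4066, 4751, 5153 and 4203 against 3291 and 4703 (log2 difference -0.20, interval -0.62 to 0.22). Col5a3, another type V chain, had 18639, 20738, 24549 and 16472 against 18097 and 16896 (log2 difference -0.19, interval -0.65 to 0.28, and 0.07 under quantile normalization). No type V chain separated the groups. Limma adjusted p-values were 0.63, 0.585 and 0.653, and the intervals of the type V chains overlap those of the type I and III chains.

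The minor fibrillar chains were low in this tissue. Col27a1, a fibrillar chain known from cartilage (chromosome 4, 63214004 to 63334991), had 687.4, 382.0, 400.3 and 318.6 in the controls, against 157.1 and 193.6 in Steap4AKO. Its mean was 2.55-fold lower and without overlap (log2 difference -1.29, SE 0.31, limma adjusted p = 0.106). Col11a2, a chain of the cartilage fibril type XI (chromosome 17, 34039437 to 34066685), had 88.8, 67.1, 60.2 and 16.9 against 14.96 and 7.27. The gap between the groups was small, since Steap4f/f replicate 6 lay next to Steap4AKO replicate 2 (log2 difference -2.15, SE 0.73, limma adjusted p = 0.194). Col11a1 ranged from 16.5 to 86.8 in Steap4f/f, with 20.8 and 7.71 in Steap4AKO, and Col24a1 from 10.03 to 44.0, with 4.45 and 18.4, so that both overlapped. Of the 10 fibrillar chains, 9 had a lower mean log2 value (47.8% of all genes) and 5 were lower without overlap (14.4% of all genes), and Col5a1 was the exception in direction. Of 7 cartilage markers only Sox9 was in the table. It had 25.7, 12.1, 16.7 and 25.4 in the controls, against 232.0 and 25.7 in Steap4AKO replicates 2 and 3. Its log2 difference was thus above 0, at 1.97 (limma adjusted p = 0.272), with replicate 3 inside the control range. Of 6 tendon markers 5 were in the table, Tnmd not among them. The 5 tendon markers summed to 201.5 to 532.5 in Steap4f/f and to 964.2 and 419.5 in Steap4AKO replicates 2 and 3, with Mkx at 0 in 3 control libraries. Fmod made up 853.2 of the sum in replicate 2. Scx had 21.1, 26.9, 23.6 and 13.8 in the controls, against 10.1 and 11.0 in Steap4AKO. Thbs4 had 112.9, 92.8, 64.2 and 143.9 against 29.2 and 53.4. Both lay below every control in both Steap4AKO libraries, as in 14.4% of all genes. Fmod and Comp went the other way, with log2 differences of 2.02 and 0.40, and their groups overlapped. No tendon marker passed the test, and the markers' part in these chains was not tested.

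**Figure D2:**
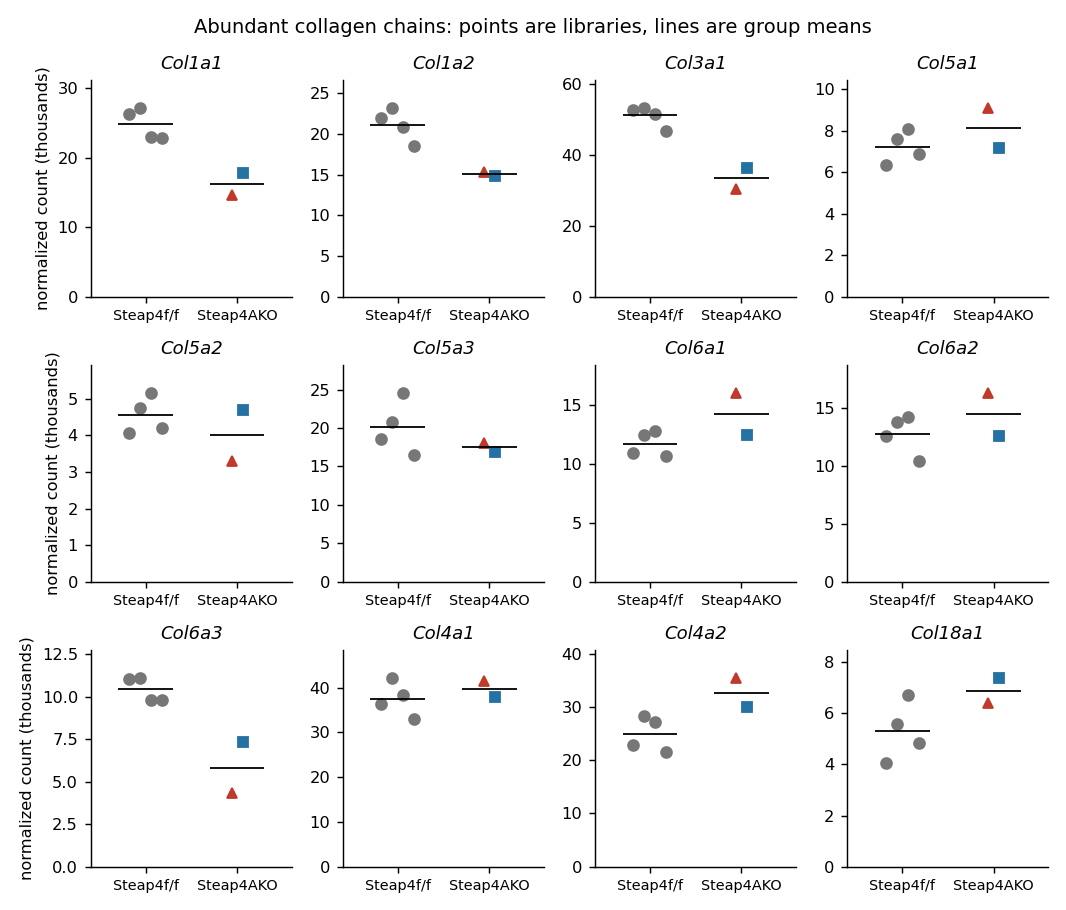
Normalized counts, as multiples of 1000 and from 0, of 12 abundant chains in each library: grey circles are the 4 Steap4f/f libraries, the red triangle is Steap4AKO replicate 2, the blue square is Steap4AKO replicate 3, and lines are group means. Col1a1, Col1a2, Col3a1 and Col6a3 separate downwards and Col4a2 upwards, while Col5a1, Col5a2, Col5a3, Col6a1, Col6a2, Col4a1 and Col18a1 overlap.

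Type VI collagen is a trimer of the chains of Col6a1, Col6a2 and a longer chain, usually that of Col6a3, whose tail is cleaved to the signalling fragment endotrophin. Of these 3 genes, only Col6a3 had both Steap4AKO libraries below the lowest control. Col6a3 (chromosome 1, 90765923 to 90843971) had 11023, 11086, 9827 and 9824 in the controls, against 4357 and 7315 in Steap4AKO. The groups did not overlap, and the mean was 1.79-fold lower (log2 difference -0.88, SE 0.21, limma adjusted p = 0.108). Without Steap4AKO replicate 2 the log2 difference was -0.51 (adjusted p = 0.438), and without replicate 3 it was -1.26 (adjusted p = 0.022).

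Its partners overlapped between the groups. Col6a1 had 10978, 12450, 12781 and 10693 in the controls, against 16035 and 12504 in Steap4AKO (log2 difference 0.28, limma adjusted p = 0.428). Col6a2, which lies 85161 bases from Col6a1 on chromosome 10 in the same direction, had 12591, 13833, 14221 and 10480 against 16312 and 12637 (log2 difference 0.18, limma adjusted p = 0.653, and -0.01 without Steap4AKO replicate 2). Both were highest in Steap4AKO replicate 2, and replicate 3 lay inside the control range. The ratio of Col6a3 to Col6a1 per kilobase of exon was 0.37, 0.33, 0.28 and 0.34 in the controls, against 0.10 and 0.21 in Steap4AKO. This ratio does not depend on how libraries were scaled, and both Steap4AKO libraries lay below every control. The mean ratio was 0.33 ± 0.04 (SD, n = 4) against 0.16 ± 0.08 (SD, n = 2), with p = 0.133 by an exact two-sided permutation test (0.267 adjusted over 6 ratios). The test doubles the p of the nearer tail, and 0.133 is the smallest p it allows with the 15 splits of 6 libraries.

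Col6a5 and Col6a6 encode long chains that can take the place of the Col6a3 chain. Col6a5 had 21.0, 111.8, 4.07 and 10.7 in Steap4f/f, 2413 in Steap4AKO replicate 2 and 4.56 in replicate 3. It was high in 1 library only, while replicate 3 lay within the control range. Col6a6 had 47.0, 91.1, 84.7 and 44.4 in the controls, against 503.7 and 85.8 in Steap4AKO, again with replicate 3 inside the control range. These genes and Col6a4 lie side by side in 1 direction on chromosome 9, with 27917 bases between Col6a6 and Col6a5. Their limma adjusted p-values were 0.564 and 0.247, and without Steap4AKO replicate 2 the log2 differences were -1.82 and 0.43.

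All 6 type IV chains had a mean log2 value that was higher in Steap4AKO. Col4a1 and Col4a2 encode the chains of the trimer found in nearly all basement membranes and lie head to head on chromosome 8, where their annotated first exons overlap by 22 bases on opposite strands. Col4a1 had 36346, 42108, 38465 and 32951 in the controls, against 41463 and 37846 in Steap4AKO, with both Steap4AKO libraries inside the control range (log2 difference 0.09, SE 0.20, limma adjusted p = 0.847). Col4a2 had 22809, 28300, 27149 and 21590 against 35357 and 29944. It was the abundant chain that was higher without overlap, 1.31-fold in its mean (log2 difference 0.39, SE 0.20, limma adjusted p = 0.349). The Col4a1 to Col4a2 ratio per kilobase was 1.41, 1.32, 1.26 and 1.35 in the controls, against 1.04 and 1.121 in Steap4AKO, lower in both (p = 0.133, exact permutation test, adjusted 0.267). Set against type I collagen, the Col4a1 to Col1a1 ratio was 1.22, 1.36, 1.47 and 1.27 in the controls, against 2.48 and 1.87 in Steap4AKO, higher in both (p = 0.133, exact permutation test, adjusted 0.267).

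The other 4 type IV chains form the specialised trimers of kidney, smooth muscle and epithelial basement membranes. They were low in the controls and high mainly in Steap4AKO replicate 2. Col4a3 ranged from 4.48 to 72.8 in Steap4f/f, with 137.8 and 47.3 in Steap4AKO. Col4a4, its head-to-head neighbour at 71 bases on chromosome 1, ranged from 26.9 to 128.8, with 299.8 and 128.2, and was the type IV chain with the smallest p (limma adjusted p = 0.184). Col4a5 had 131.2, 99.1, 103.2 and 115.4 in the controls, against 621.8 and 119.1 in Steap4AKO. Col4a6, head to head with Col4a5 on chromosome X at 1308 bases, was listed at 0 in Steap4f/f replicate 1, had 5.42, 10.7 and 12.3 in the others, and had 217.9 and 7.94 in Steap4AKO. Both partners of this pair were thus high in replicate 2 and inside the control range in replicate 3. Without replicate 2 the log2 differences were 0.92 for Col4a3, 1.38 for Col4a4 and 0.09 for Col4a5, and Col4a6 was below the filter. Reads of Col4a3 cannot be told apart from those of an antisense transcript, C430014B12Rik, over 563 shared exon bases, because the sources used here do not give the strandedness.

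**Figure D3:**
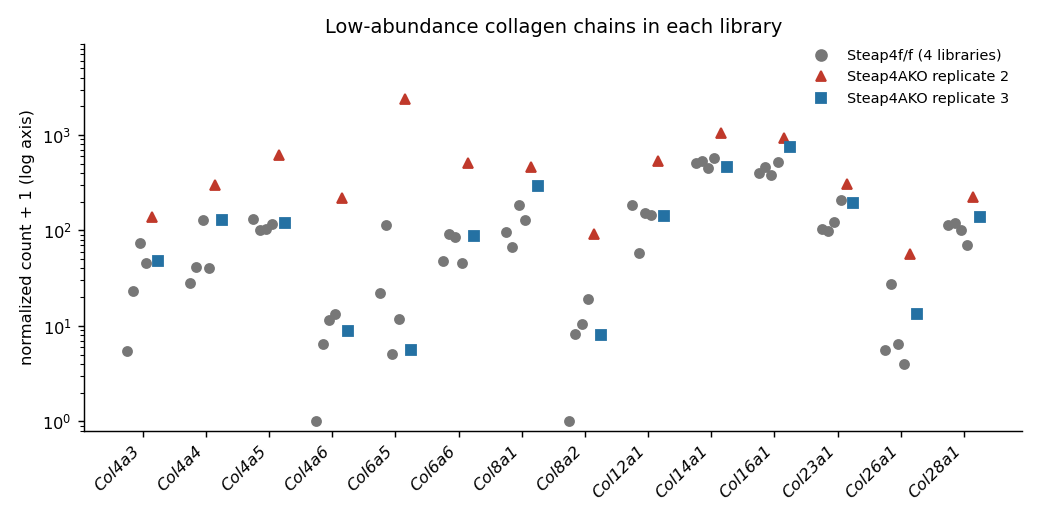
Normalized count plus 1, on a log axis, in each library, of the 14 of 23 chains with a mean under 1000 that were picked because Steap4AKO replicate 2 is their highest library: grey circles are the 4 Steap4f/f libraries, red triangles Steap4AKO replicate 2 and blue squares Steap4AKO replicate 3. By that choice the triangles are the highest points, from 54.98 for Col26a1 to 2413 for Col6a5 before 1 is added, while the squares of Col8a1, Col16a1 and Col28a1 alone also lie above every grey point.

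Col4a4, Col4a5, Col4a6, Col6a5, Col6a6, Col12a1, Col8a2 and Col26a1 were the 8 of 36 chains (22.2%) more than 2-fold above every other library in Steap4AKO replicate 2, against the 6.48% of all genes given above, and no chain was in replicate 3. Smooth muscle and pericyte markers were high in that library as well, with a sum over 9 genes of 48264 against 14088 to 18230 in Steap4f/f and 23950 in replicate 3. The 7 macrophage markers summed to 24770, against 7093 to 7913 and 7253. Of these lists, 4 of 9 smooth muscle and pericyte, 5 of 7 macrophage, 7 of 7 mesothelial and 8 of 8 epithelial markers were more than 2-fold above every other library there. No marker of the smooth muscle and macrophage lists was at 0 in any library. Their part in the 8 chains was not tested.

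FACIT collagens bind to the surface of fibrils and link them to their surroundings. Col16a1 (chromosome 4, 130047840 to 130099283) had 395.3, 464.1, 378.4 and 522.0 in the controls, against 930.9 and 754.5 in Steap4AKO. Both Steap4AKO libraries lay above every control, by 1.92-fold in the mean (log2 difference 0.94, SE 0.19, limma adjusted p = 0.0754), and without replicate 2 the log2 difference was 0.79 (adjusted p = 0.418). Col14a1, a FACIT of mature fibrils, had 510.9, 528, 451.3 and 578.2 against 1041 and 466.3, high in replicate 2 alone. Col12a1, found in stretched tissue, had 185.8, 57.1, 152.0 and 144.6 against 533.6 and 139.6 in the same pattern. Col20a1 ranged from 14.2 to 51.7 in Steap4f/f, with 28.1 and 35.8, and Col22a1, of the junction between muscle and tendon, from 0 to 46.7, with 22.7 and 1.24. Both overlapped, and in Steap4AKO replicate 3 Col22a1 was near the value of 1 read, about 0.99 in that library.

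Among the other chains, Col8a1 was higher in both Steap4AKO libraries. It encodes a short chain of the network-forming type VIII of vessel walls (chromosome 16, 57624258 to 57754737). It had 95.1, 66.7, 182.3 and 127.9 in the controls, against 456.6 and 292.3 in Steap4AKO, a mean 3.17-fold higher (log2 difference 1.72, SE 0.41, limma adjusted p = 0.106), and without replicate 2 the log2 difference was 1.40 (adjusted p = 0.51). Its partner Col8a2 was at 0, 7.22, 9.58 and 17.9 in the controls, against 90.9 and 7.06 in Steap4AKO, high in replicate 2 alone. Col28a1, of the sheath of peripheral nerves, had 113.0, 118.2, 100.04 and 68.7 against 222.7 and 137.4, without overlap (log2 difference 0.83, limma adjusted p = 0.254). The 7 Schwann cell markers went the opposite way, with all 7 lower in their mean log2 value and sums of 5096 to 14255 in the controls, against 755.1 and 5936 in Steap4AKO, and their part in Col28a1 was not tested.

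Col15a1 and Col18a1 are basement membrane zone collagens whose tails release anti-angiogenic fragments, endostatin in the case of Col18a1. Col15a1 was abundant, with 13964, 19995, 16741 and 12539 in the controls, against 14605 and 16521 in Steap4AKO, and its log2 difference was 0.00 (95% interval -0.51 to 0.50, 0.18 when libraries were scaled to the same total). Col18a1 had 4063, 5565, 6718 and 4828 against 6374 and 7351 (log2 difference 0.40, SE 0.21, limma adjusted p = 0.358), with overlap in replicate 2. Endothelial markers summed to 19224 to 21787 in Steap4f/f and to 21814 and 25014 in Steap4AKO, and their part in these chains was not tested.

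The transmembrane and anchoring chains were low. Col23a1, a transmembrane chain, ranged from 98.4 to 208.9 in Steap4f/f, with 308.0 and 190.9 in Steap4AKO. Col13a1, of the neuromuscular junction, ranged from 17.1 to 60.7, with 24.7 and 37.4, and Col17a1, of epithelial attachment sites, from 10.2 to 65.7, with 11.7 and 11.6. Col7a1, of the anchoring fibrils of skin, ranged from 56.7 to 322.5, with 63.9 and 30.1 (limma adjusted p = 0.284), and Col26a1 from 2.96 to 26.6, with 55.0 and 12.4. The groups overlapped in all 5.

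The make-up of the collagen transcripts separated the groups for 4 of 5 types. Divided by exon length and summed within a library, the fibrillar chains held 48.2, 44.9, 45.7 and 47.0% of the collagen total in the controls, against 33.6 and 38.1% in Steap4AKO. The share of type IV was 26.5, 28.0, 27.2 and 26.9% against 34.8 and 32.1%, and that of type VI 15.7, 15.4, 16.0 and 15.8% against 19.8 and 16.6%. The FACIT share was 0.49, 0.45, 0.41 and 0.62% against 1.04 and 0.65%. In each of these 4 types the groups did not overlap, and each difference had p = 0.133 (exact two-sided permutation test, 0.167 adjusted over 5 types). This is the smallest p that the test, which doubles the p of the nearer tail, allows with 15 splits. The share of the other chains was 9.07, 11.3, 10.8 and 9.68% against 10.7 and 12.5%, with overlap (p = 0.4, exact permutation test). Shares add up to a whole, so that a lower fibrillar share raises the others. The summed level per kilobase gives each type its own scale: it was 15025 ± 1101 (SD, n = 4) for fibrillar chains in the controls, against 11056 ± 543 (SD, n = 2) for Steap4AKO. For type VI it was 5096 ± 448 against 5645 ± 920, and the groups overlapped, with Steap4AKO replicate 3, at 4994, inside the control range of 4527 to 5457. For type IV it was 8818 ± 992 against 10344 ± 1010, with Steap4AKO replicate 3, at 9630, inside the control range of 7703 to 9939.

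**Figure D4:**
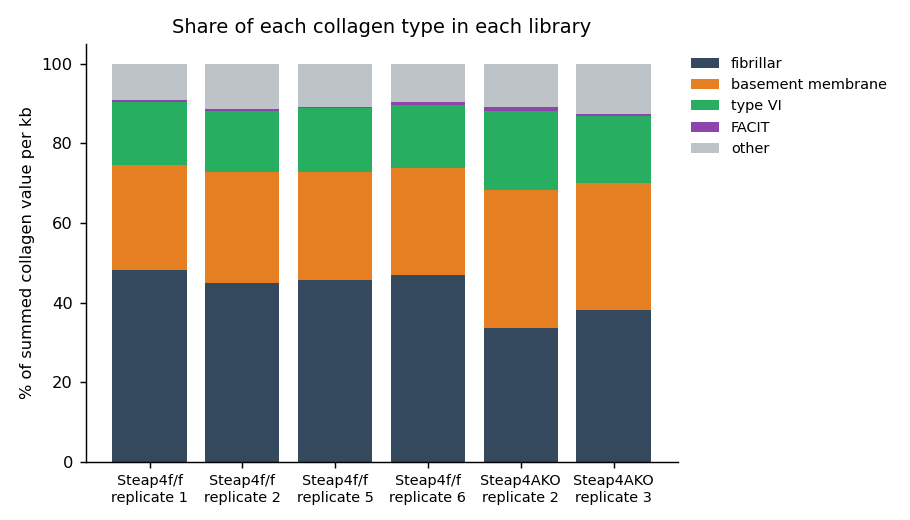
Bars are the 6 libraries, and colours give the percentage of the summed collagen value per kilobase of exon held by each type. The fibrillar part is 44.9 to 48.2% in the control libraries, against 33.6 and 38.1% for Steap4AKO, and the type IV part is 26.5 to 28.0% and 34.8 and 32.1%.

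The order of the chains by level per kilobase differed at its top. In Steap4f/f Col3a1 led with 5216 ± 299 (SD, n = 4), followed by Col4a1 with 5020 ± 514, which did not differ beyond the spread, then Col1a1 with 3783 ± 337 and Col4a2 with 3771 ± 493, again alike within the spread. In Steap4AKO the order by means was Col4a1 with 5313, Col4a2 with 4933, Col3a1 with 3404, Col6a1 with 3258 and Col5a3 with 2570, and Col1a1 was in place 6 with 2476. Over the 2 libraries Col3a1 spanned 3109 to 3700 and Col6a1 2855 to 3661, and their order turned between the libraries. So did that of Col5a3, at 2481 to 2658, and Col1a1, at 2240 to 2712. Level ratios between chains depend on the length used. The Col1a1 to Col1a2 ratio in Steap4f/f was 2.23 ± 0.10 (SD, n = 4) over all exons of each gene and 1.06 ± 0.05 with the longest coding transcript, since Col1a2 has 12.4 kilobases of exon in the first case and 5.35 in the second. With the second length Col3a1 led in Steap4f/f with 9202 per kilobase. In Steap4AKO Col3a1 and Col4a1 lay within the spread of each other, at 6006 and 5995, with Col4a1 ahead in replicate 2 and Col3a1 in replicate 3. By that length Col1a1 was in place 3 in Steap4f/f and place 9 in Steap4AKO. Within a chain pair the length cancels between groups. The Col1a1 to Col1a2 ratio over all exons was 1.81 and 2.27 in Steap4AKO (p = 0.533, exact permutation test), and the Col3a1 to Col1a1 ratio was 1.35, 1.31, 1.4997 and 1.37 in the controls, against 1.39 and 1.36 in Steap4AKO (p = 0.933, exact permutation test). The Col6a1 to Col6a2 ratio was 1.75 ± 0.13 (SD, n = 4) against 1.87 ± 0.01 (SD, n = 2) (p = 0.4, exact permutation test). These 3 ratios overlapped between the groups.

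Genes that make and assemble collagen were taken from fixed lists. Across 6 lists of related genes, 0 genes passed the test by limma in a fit where 0.473% of all genes did, and 12 of 71 tested had an unadjusted p under 0.05, against 18.1% of all genes. Of 14 genes listed for hydroxylation and glycosylation of the chains 3 had such a p, with a median log2 difference of -0.01. P3h1, a prolyl 3-hydroxylase, had 741.1 in Steap4f/f and 1037 in Steap4AKO as means (1.40-fold higher without overlap, limma adjusted p = 0.147). Colgalt1, a collagen galactosyltransferase, was 1.38-fold higher without overlap (adjusted p = 0.258), and P4ha2, a subunit of prolyl 4-hydroxylase, 1.47-fold lower with overlap (adjusted p = 0.269). Of 10 genes of folding and export none had an unadjusted p under 0.05 (median -0.03). Mia3, which packs procollagen for export, was 1.14-fold higher, Serpinh1, the collagen chaperone HSP47, 1.28-fold lower and Sec23a 1.08-fold higher, with adjusted p-values of 0.469, 0.584 and 0.746.

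The 2 enhancers of procollagen processing went in opposite directions. Pcolce had 3651, 3650, 3058 and 2257 in the controls, against 1413 and 2342 in Steap4AKO, 1.68-fold lower in its mean with overlap in replicate 3 (limma adjusted p = 0.199). Pcolce2 had 515.6, 738.9, 368.8 and 540.1 against 1473 and 806.2, 2.11-fold higher without overlap (adjusted p = 0.169). Tll1, a procollagen C-proteinase, had a mean 1.51-fold higher (adjusted p = 0.476), and the median of the 7 propeptide removal genes was 0.15. Among the 5 cross-linking enzymes of the lysyl oxidase family, Loxl4 had a mean 1.99-fold higher (adjusted p = 0.276), and Loxl1 and Loxl2 means 1.18-fold lower (adjusted p = 0.42 and 0.588), with a list median of -0.15.

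Proteins that sit on fibrils were mixed. Prelp, which anchors basement membranes to connective tissue, had 13081, 19849, 19987 and 26639 in the controls, against 31176 and 38633 in Steap4AKO, 1.75-fold higher without overlap (limma adjusted p = 0.194). Bgn, the proteoglycan biglycan, was 1.43-fold higher without overlap (adjusted p = 0.246). Dpt, dermatopontin, which speeds fibril formation, had 17680, 20447, 18705 and 13639 against 3526 and 14475, with replicate 2 low and replicate 3 inside the control range (adjusted p = 0.23). The list of 17 had a median of 0.16. Among 18 basement membrane partners, Nid1, which bridges laminin and type IV collagen, had 10685, 12759, 12756 and 12398 against 16645 and 16448 (1.36-fold higher without overlap, adjusted p = 0.199). Nid2, its paralog, was 1.54-fold higher without overlap (adjusted p = 0.302), and Lama4, a laminin chain of fat and vessels, 1.29-fold lower without overlap (adjusted p = 0.252). The median was 0.08. Over the 6 lists 11 of 71 genes were higher without overlap and 1 lower, against 14.1 and 14.4% of all genes.

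**Figure D5:**
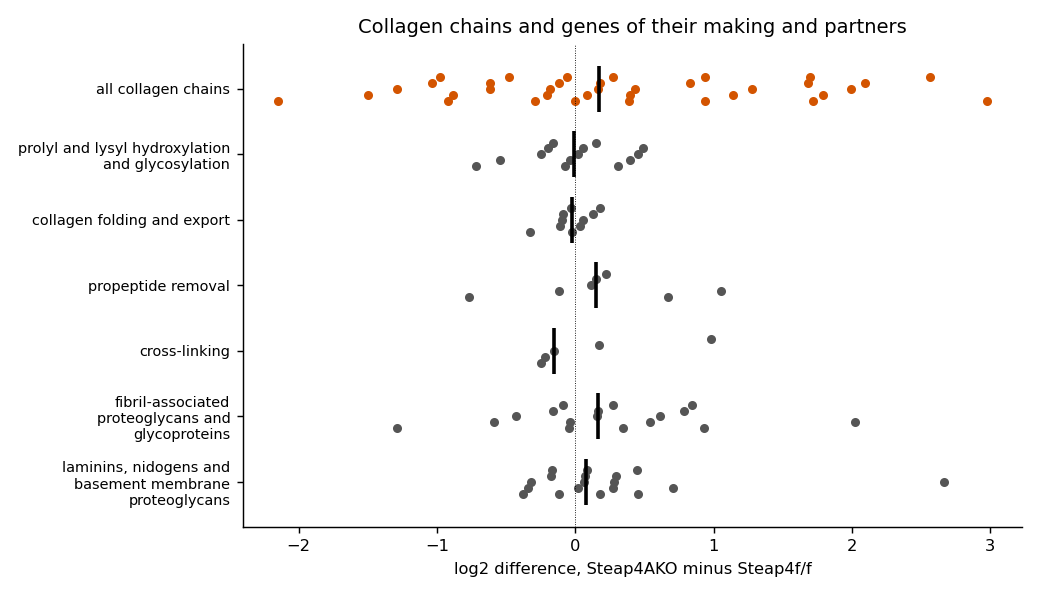
Points are genes at their log2 difference, Steap4AKO minus Steap4f/f on log2(value + 1), for the 36 collagen chains (orange, top row) and for 6 lists of genes that modify, export, process, cross-link or accompany them (grey); black bars are medians. The medians of the 6 lists lie between -0.15 and 0.16, and the chains spread from -2.15 (Col11a2) to 2.98 (Col4a6).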

How the data were processed

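RNA of inguinal white adipose tissue was sequenced in 4 Steap4f/f and 2 Steap4AKO libraries. Values are a signal as deposited, namely read counts per gene that the authors had scaled using DESeq2 according to the table's own name. Per the submitters' processing notes, the tools named were DESeq2 1.12.4, RSEM 1.3.3, STAR 2.7.0e and R 4.2.0, on builds mm10 and GRCm38; no annotation is given there. Only 33.2 to 58.0% of low values came within 0.1 of whole reads, so no count test was run and the depth is an estimate.

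Values were taken as log2(value + 1), kept for 15006 genes with a mean of at least 10, and fitted with limma 3.58.1 (trended variance, 2 groups) in R 4.3.3, with Benjamini-Hochberg adjustment over all 15006. Shares and ratios, per kilobase of GENCODE M21 exon, were compared by exact permutation in SciPy 1.17.1 (Python 3.11.15, matplotlib 3.10.9). Values per library are given for chains with a mean of at least 1000, those that passed, and those at least 2-fold apart without overlap. Other chains given by library were chosen after their values were seen, and of each related list the 3 genes with the smallest p are named. Members and lists were chosen with earlier results of these data known. The fit was tested on simulated data. Alternatives were the pseudocount (0.5 and 5), the filter (none, and a mean of 50), total scaling, quantile normalization, array weights, transcript length and leaving out each library.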

Additional observations from a re-analysis of the deposited data

Results flagged for a closer look

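In 4 chains and in Steap4, 1 control library lay far from the other 3, by a gap over Dixon's 95% critical share of the group's range. Col4a4 was 128.8 in Steap4f/f replicate 5, Col6a5 was 111.8 in replicate 2, Col11a1 was 86.8 in replicate 1, Col26a1 was 26.6 in replicate 2, and Steap4 was 17018 in replicate 1. Of 59 values tested 5 were picked out, and chance picks out about 1 in 20.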

How the results depend on the processing

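Counts of all genes past the threshold, 71 as reported, were 1 with a pseudocount of 0.5, 123 with 5, 1 with a mean of at least 50, 119 with array weights, and 1 to 821 with 1 library left out (821 without Steap4AKO replicate 3, 238 without Steap4f/f replicate 1, and 1 without each other library). With 1 library left out, chains passed the threshold only without Steap4AKO replicate 3, a fit that leaves 1 library in that group. Those were Col4a5, Col6a3, Col6a6 and Col14a1, with log2 differences of 2.47, -1.26, 2.97 and 1.01 there. Genes of the fibril-associated list and of the laminin and nidogen list also passed in that fit alone. It was also the fit with the most genes of the whole table past the threshold. The lone Steap4AKO library is then assumed to vary like the controls. In every other setting run 0 chains passed by limma. The median of all chains was 0.33 with a mean of at least 50, 0.35 with total scaling, 0.37 with quantile normalization, and 0.036 to 0.35 with 1 library left out. The fibrillar median was -0.43 with total scaling and -0.40 with quantile normalization. The type IV median was 0.27 to 2.46 (2.455 at most) with 1 library left out, and that of type VI -0.0064 to 0.46, and 0.48 with quantile normalization. The FACIT median was 0.94 with a mean of at least 50, 0.62 with total scaling, and 0.052 to 1.09 with 1 library left out. Chains higher without overlap, 4 as reported, were 9 with total scaling (25.6% of all genes) and 8 with quantile normalization (15.6%). They were 5 to 18 with 1 library left out (16.8 to 31.5% of all genes). There were 18 without Steap4AKO replicate 3 (31.5%) and 8 without Steap4f/f replicate 5 (17.7%). Chains lower without overlap, 6 as reported, were 4 with total scaling (7.7%) and 7 with quantile normalization (13.5%). They were 6 to 8 with 1 library left out (16.7 to 28.6% of all genes). These settings were chosen after seeing the data. Directions turned without Steap4AKO replicate 2 for Col5a1 (-0.0087 to 0.34 over libraries left out), Col5a2 (-0.46 to 0.056) and Col6a2 (-0.0064 to 0.36), and likewise for Col6a5 (-1.82), Col13a1 (0.23), Col14a1 (-0.14) and Col20a1 (0.05), for Col5a3 (0.068) with quantile normalization, and for Col15a1 with total scaling (0.18), with quantile normalization (0.23) and with 1 library left out (-0.11 to 0.12). The log2 difference of Col22a1 turned from -0.29 to 1.42 without Steap4AKO replicate 3. With 1 library left out the log2 difference of the Col1a1 to Col1a2 ratio was -0.29 to 0.028 and that of Col3a1 to Col1a1 -0.03 to 0.034. The cause was not tested. No paired analysis was possible because the groups share only replicate number 2.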
